A study of Mus musculus with 6 samples.

Results

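The nuclear genes of oxidative phosphorylation were examined in BV2, an immortalised line of mouse microglia on a C57BL/6 background. Cells were either left untreated (Control, 3 samples) or given human full-length apolipoprotein E4 (FL-ApoE4, 3 samples) at 25 µg/ml for 5 h. Apolipoprotein E4 is the lipid-carrying protein variant known as the main common genetic risk factor for late-onset Alzheimer's disease. All 6 samples were grown in the same serum-containing medium, total RNA was extracted, and strand-specific libraries were sequenced. Whether the untreated cells received the vehicle of the protein is not given in the labels, and neither is whether the 3 samples of a group were separate cultures, so p-values cover no more than the spread among the libraries, which may be technical.

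Members were taken by symbol: names starting Nduf followed by a, b, c, s or v, the 4 Sdh subunits, and names starting Uqcr, Cox4 to Cox8 or Atp5, with pseudogene names left out. This gave 97 of the 40202 genes in the deposited table. They comprised 42 complex I subunits, 8 complex I assembly factors (Ndufaf1 to Ndufaf8, which the pattern takes although they are not part of the finished complex), 4 genes of complex II, 8 of complex III, 18 of complex IV and 17 of complex V. Cyc1, the cytochrome c1 subunit of complex III, is not matched by the pattern and is given with the electron carriers, and Ndufa4, counted here with complex I by its name, is now regarded as a complex IV subunit. Of the 97 genes, 87 passed the filter on low values, a mean of at least 10 normalised reads over the 6 libraries, as did 14079 genes of the whole table. The 10 genes that did not are described with their isoforms.

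Oxidative phosphorylation takes place in the inner mitochondrial membrane. Complex I (NADH dehydrogenase) and complex II (succinate dehydrogenase) pass electrons to ubiquinone, complex III hands them to cytochrome c, complex IV (cytochrome c oxidase) reduces oxygen, and complex V (ATP synthase) uses the resulting proton gradient to make ATP. Most subunits are encoded in the nucleus and have to be matched in amount to the few that the mitochondrial genome encodes, and several have alternative isoforms used in heart and skeletal muscle, lung or testis. Microglia, the macrophages of the brain, are known to shift between oxidative phosphorylation and glycolysis when they are activated.

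Transcription factors known to act on these genes include NRF1, the ETS factor GABPA (also called NRF2) and YY1. Promoters of 78 of the 97 genes, 74 of them among the 87 tested, were found in the RefSeq promoter set (GRCm38.p6), each running from 250 bases before to 50 after the annotated start. The NRF1 motif, a near-palindrome made mostly of G and C with a free base near its middle (spelled out in capitals in the first 4 sequences printed next), was present on either strand in 19 of the 74 promoters (25.7%), against 10.8% of 11087 tested genes with a promoter and 5.19% of all 27025. The ETS motif CCGGAAG was also in 19 (25.7%), against 19.4% of tested and 9.93% of all genes. The YY1 motif AAGATGGC was in 11 (14.9%), against 5.15% and 3.19%, and the TATA box TATAAA in 6 (8.11%), against 9.50% and 15.7%. The shares differed by complex. The NRF1 motif ranged from 1 of 10 promoters in complex IV to 2 of 3 in complex II. The ETS motif ranged from 4 of 34 in complex I subunits to 2 of 3 in complex II. No test was made of these shares, and a match is a description of the letters, not a binding site.

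Promoters of 4 tested genes held both the NRF1 and the ETS motif (5.41%, against 2.53% of tested genes): Sdhd, a membrane anchor of complex II, Cox6a1, a nuclear subunit of complex IV, and Atp5h and Atp5k, subunits of the membrane part of ATP synthase. Their windows are shown because these promoters hold both motifs, which most members lack, and those of Cox7a1 and Ndufaf7 because these 2 genes had the lowest p-values below. Each line gives the 150 bases before the start (GRCm38.p6), 5′ to 3′ on the gene's own strand, with the NRF1 and ETS motifs in capitals. CTTCCGG is the ETS motif read on the opposite strand. The windows are chr9:50603850-50603999 (minus strand) for Sdhd, chr5:115348959-115349108 (minus) for Cox6a1, chr11:115419920-115420069 (minus) for Atp5h, chr5:108434400-108434549 (minus) for Atp5k, chr7:30184021-30184170 (plus) for Cox7a1 and chr17:78936985-78937134 (plus) for Ndufaf7.
Sdhd: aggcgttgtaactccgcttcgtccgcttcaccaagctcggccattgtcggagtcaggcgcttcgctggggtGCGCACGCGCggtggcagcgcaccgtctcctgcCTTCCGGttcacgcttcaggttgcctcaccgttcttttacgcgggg
Cox6a1: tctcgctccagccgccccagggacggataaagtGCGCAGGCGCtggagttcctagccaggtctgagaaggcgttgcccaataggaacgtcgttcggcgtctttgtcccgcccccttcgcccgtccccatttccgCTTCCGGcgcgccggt
Atp5h: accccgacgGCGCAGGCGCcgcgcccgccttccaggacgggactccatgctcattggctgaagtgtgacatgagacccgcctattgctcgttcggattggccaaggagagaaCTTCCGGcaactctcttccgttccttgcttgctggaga
Atp5k: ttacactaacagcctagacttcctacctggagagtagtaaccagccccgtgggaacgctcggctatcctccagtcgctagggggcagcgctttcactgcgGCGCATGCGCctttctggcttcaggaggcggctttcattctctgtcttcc
Cox7a1: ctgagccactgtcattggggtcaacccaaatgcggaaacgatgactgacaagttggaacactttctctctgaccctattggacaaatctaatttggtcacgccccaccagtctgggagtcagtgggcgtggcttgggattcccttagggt
Ndufaf7: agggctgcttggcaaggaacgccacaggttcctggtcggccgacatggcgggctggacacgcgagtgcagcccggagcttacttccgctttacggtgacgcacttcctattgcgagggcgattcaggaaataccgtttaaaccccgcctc
In Sdhd, Cox6a1 and Atp5h both motifs lay inside the window. In Atp5k the window held the NRF1 motif alone, its ETS motif lying elsewhere in the longer promoter. The windows of Cox7a1 and Ndufaf7 held neither. The 19 tested genes with an NRF1 motif had a median log2 fold change of 0.01 and the 55 without one a median of 0.02, so holders and non-holders lay close together in the comparison described next.

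Libraries held 45700128 to 54965393 reads assigned to genes. Replicate 1 stood apart in both groups: over genes with enough reads, the chi-square per gene was 63.8 and 71.8 between Control 1 and the other controls against 4.83 between those, and 21.5 and 20.05 between FL-ApoE4 1 and the other treated libraries against 4.37 between those. As to the labelled cell type, 10 of 10 microglia and macrophage markers passed the filter, with a summed level of 139772 to 146103 normalised reads in controls and 160447 to 167231 with FL-ApoE4. Sums for markers of 6 other cell types were lower, the highest being that of oligodendrocyte genes, 1151 to 1242 in controls and 1211 to 1295 with FL-ApoE4. Nearly all of that sum came from Mbp, with a mean of 1097 in controls. Mbp thus lay above some single microglia markers, such as Cx3cr1 with a mean of 106 in controls. All 4 T cell and fibroblast markers were under the filter.

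No oxidative phosphorylation gene differed between FL-ApoE4 and Control past the threshold. With limma on log2(normalised reads + 1) and Benjamini-Hochberg adjustment over all tested genes, 0 of 87 were called higher and 0 lower at an adjusted p of 0.05, as for the whole table (0.0% of 14079 genes in either direction). At an unadjusted p of 0.05, 0 of 87 were higher, against 6.81% of all tested genes, and 2 of 87 were lower, against 6.33%. Those 2 were Cox7a1, the heart and muscle isoform of a complex IV subunit, and Ndufaf7, a methyltransferase that assembles complex I. Cox7a1 passed the filter through its controls alone, which favoured a lower value, so its place in this count is a description. By edgeR on the recovered reads 0 of 87 were called, as were 0.0% of all genes in either direction. At an unadjusted p of 0.05 edgeR gave 2 of 87, again Cox7a1 and Ndufaf7, against 13.1% of all tested genes. By DESeq2 likewise 0 of 87 were called, where 2.63% of all genes were called. Since these are bulk libraries, fewer cells of a kind and less RNA per cell cannot be told apart in any value given here.

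The fold changes were small and measured closely. The 86 tested members other than Cox7a1 had log2 fold changes between -0.19 (Ndufaf7) and 0.12 (Ndufaf8), which is 0.877- to 1.08-fold, with standard errors of 0.041 to 0.091. For 84 of the 87 the 95% interval of the fold change lay within 1.25-fold in either direction, against 47.5% of all tested genes, and for 86 it lay within 1.5-fold, against 71.1%. The 3 whose interval passed 1.25-fold were Cox7a1, Ndufaf7 and Ndufaf8, a small assembly factor of complex I. These intervals rest on the spread among 3 libraries a group and on a fit that shares information across genes. The level of the members bears on their precision: 83 of the 87 had a mean above 1000 normalised reads, and the lowest after Cox7a1 was at 579.

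**Figure D1:**
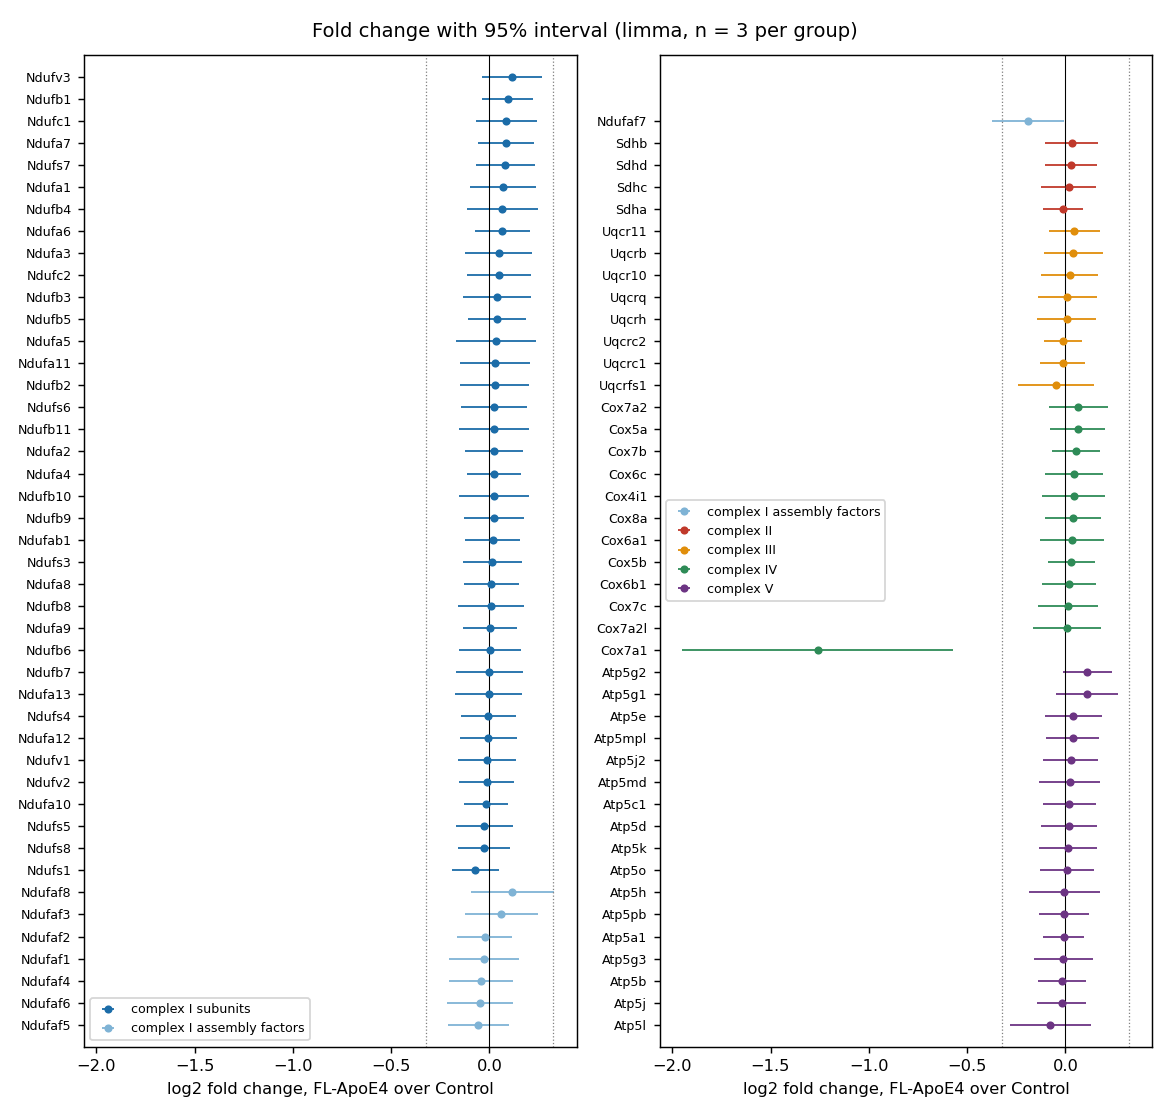
Log2 fold change of 86 of the 87 tested genes, FL-ApoE4 over Control, with its 95% interval from limma (n = 3 per group), ordered within each complex and coloured by complex. Dotted lines mark 1.25-fold in either direction, and Cox7a1 at -1.26, which passed the filter through its controls alone, is the one gene whose whole interval lies beyond them.

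The median log2 fold change of the 87 members was 0.02, beside 0.001 for all tested genes. It was 0.02 for complex I subunits, -0.03 for the complex I assembly factors, 0.02 for complex II, 0.008 for complex III, 0.04 for complex IV and 0.01 for complex V. A positive value was found for 59 and a negative one for 28, against 50.3% positive in the whole table. The median stayed positive under the 3 other scalings run (TMM, quantile and equal totals), between 0.02 and 0.04, and turned to -0.02 once the dependence on transcript length and GC content was removed from every library. In that fit 37 members were positive and 50 negative, against 50.9% negative over all genes, and 0 were called, against 0.198%.

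The sign of these small values turned on FL-ApoE4 replicate 1. That library was the highest of all 6 libraries in 72 of the 87 genes (82.8%), against 21.7% of all tested genes, and it lay above the mean of FL-ApoE4 replicates 2 and 3 in 85 of 87, against 49.1%. The exceptions to the latter were Cox7a1 and Ndufs1. The median gap was 0.15 on the log2 scale, beside -0.005 over all tested genes. By complex, it was highest in 36 of 38 complex I subunits, 3 of 4 genes of complex II, 6 of 8 of complex III, 11 of 12 of complex IV and 14 of 17 of complex V, but in 2 of 8 assembly factors. Measured as the median deviation from each gene's own mean, the libraries stood at 0.02, -0.007 and -0.04 in Control 1 to 3 and at 0.12, -0.04 and -0.05 in FL-ApoE4 1 to 3. Control 3 and the other treated libraries thus lay side by side, and FL-ApoE4 1 above them all.

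**Figure D2:**
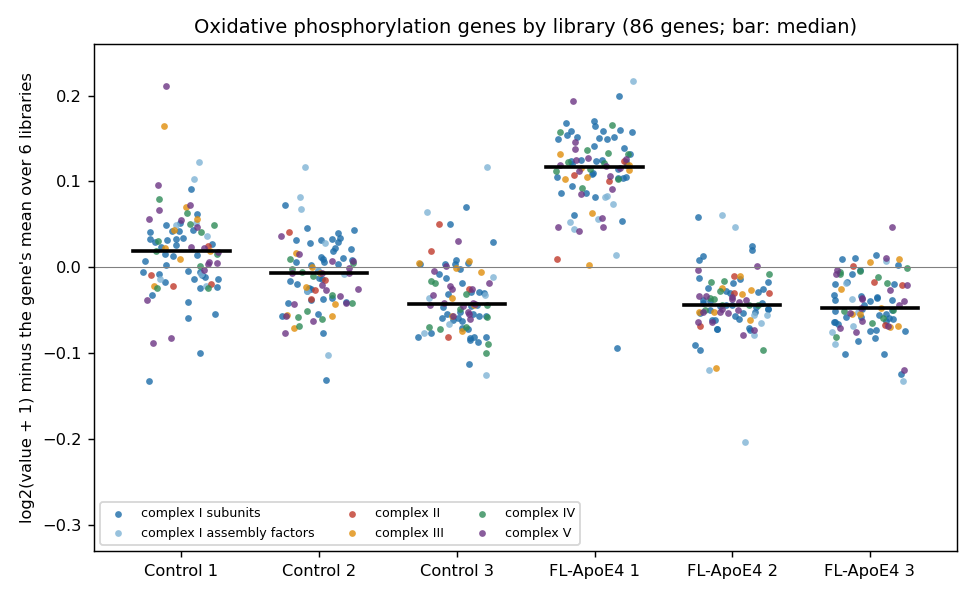
Deviation of each gene from its own mean over the 6 libraries, log2(normalised reads + 1), for the 86 tested genes other than Cox7a1 (points, coloured by complex; horizontal jitter has no meaning). Bars are medians over these genes: FL-ApoE4 1 stands at 0.12 and the other 5 libraries between -0.05 and 0.02.

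Without FL-ApoE4 replicate 1 the median of the 87 members was -0.04, beside 0.001 for all genes, and 72 were negative, against 49.8% of all tested genes. All 6 groups of members then had a negative median, from -0.02 in complex II to -0.08 in the assembly factors. The treated pair lay below all 3 controls in 29 of 87 members (33.3%), against 17.1% of all tested genes, and above them in 4, against 17.2%. Again 0 of 87 were called by limma, as were 0.0% of all genes. Without Control replicate 1 the median was 0.03, and 0 of 87 were called although 4.62% of all genes were. By edgeR without that library 0 of 87 were called as well, against 4.91%.

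**Figure D3:**
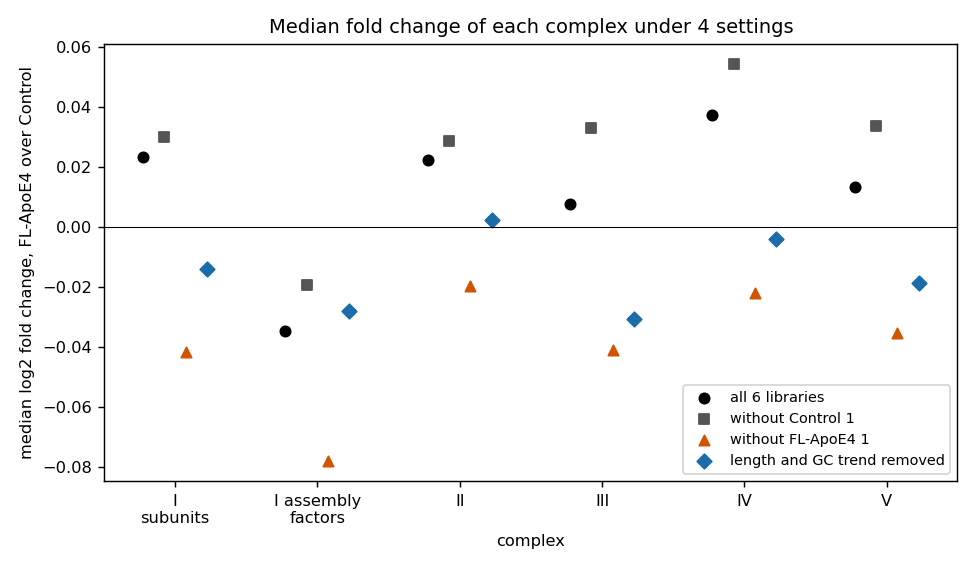
Median log2 fold change of each group of genes, FL-ApoE4 over Control, with all 6 libraries, without Control 1, without FL-ApoE4 1, and with the dependence on transcript length and GC content removed from every library. Medians lie between -0.08 and 0.05 in every case, and those without FL-ApoE4 1 (triangles) are all below 0.

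Transcript length moved with the position of FL-ApoE4 replicate 1. Members have short transcripts, with a median of 732 bases beside 2597 for all tested genes with a known length. Across 13134 genes, the departure of FL-ApoE4 1 from the other treated libraries correlated with transcript length at a Spearman rho of -0.44, and across the 87 members at -0.19. Both are descriptions across genes of the same libraries, and genes are not independent replicates. Among genes with transcripts under 750 bases the median departure was 0.11 over 1040 genes and 0.17 over the 45 members. For 750 to 1500 bases it was 0.11 over 2064 genes and 0.16 over 26 members, and for 1500 to 3000 bases 0.04 over 4609 genes and 0.12 over 14 members. For 3000 bases and over it was -0.09 over 5421 genes and 0.16 over the other 2 members. Short genes in general thus stood higher in that library, and the members' median lay above that of all genes in each band. The part of transcript length in this departure was not tested.

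The spread among replicates was narrow otherwise. The median SD of the members was 0.045 in controls, beside 0.12 for all tested genes, and 0.092 in the treated group, beside 0.094. Between Control replicates 2 and 3 it was 0.027, beside 0.049, and between FL-ApoE4 replicates 2 and 3 it was 0.021, beside 0.047. Members and all tested genes were not matched for level here. Expressed as a share of all assigned reads, the 97 genes took 1.25%, 1.27% and 1.25% in Control 1 to 3 and 1.37%, 1.24% and 1.24% in FL-ApoE4 1 to 3, so the groups overlapped and FL-ApoE4 1 was the highest. Genes of complex V took the most, 0.471% to 0.512% of reads, then complex I subunits, 0.318% to 0.357%, and complex IV, 0.201% to 0.230%.

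Among complex I subunits the core, which carries flavin and iron-sulphur clusters, was close to even between groups. Ndufv1, the flavin- and NADH-binding subunit, had 8934, 8152 and 8209 normalised reads in Control 1 to 3 and 8952, 8090 and 8029 in FL-ApoE4 1 to 3. Replicate 1 was the highest in each group and the ranges overlapped. The log2 fold change was -0.01 ± 0.06 (SE; limma adjusted p = 0.959). Ndufs1, the largest iron-sulphur subunit, had 4835, 5022 and 5108 in controls and 4557, 4783 and 4903 with FL-ApoE4, with a log2 fold change of -0.07 ± 0.05 (adjusted p = 0.613). It was a gene in which FL-ApoE4 1 was the lowest library. Ndufs8, another iron-sulphur subunit, had a log2 fold change of -0.03 ± 0.06. Further core subunits lay on either side of 0, with Ndufs7 at 0.08 ± 0.06, Ndufs3 at 0.02 ± 0.06 and Ndufv2 at -0.01 ± 0.06.

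The complex I subunits with the lowest p among positive values were Ndufv3, an accessory subunit of the NADH-oxidising module, and Ndufb1, an accessory subunit of the membrane arm. Ndufv3 had 2166, 2339 and 2195 normalised reads in controls and 2560.1, 2417 and 2270.0 with FL-ApoE4. Control 2 exceeded FL-ApoE4 3, so the groups overlapped. The log2 fold change was 0.11 ± 0.07 (limma adjusted p = 0.517). Ndufb1 had 2202, 2128 and 2089 in controls and 2377, 2242 and 2232 with FL-ApoE4. All treated libraries lay above all controls, and the log2 fold change was 0.09 ± 0.06 (adjusted p = 0.524).

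Treated values lay above all controls without overlap in 4 of the 87 members, against 11.1% of all tested genes. These were Ndufb1, Ndufc1, Atp5g1 and Atp5g2. Treated values lay below all controls in 1, Cox7a1, against 10.9%. The filter favoured a lower value in Cox7a1, which passed it through its controls alone. Ndufc1, an accessory subunit of complex I named here after its values were seen, had 1986, 2035 and 2005 normalised reads in controls and 2325, 2043 and 2043 with FL-ApoE4. FL-ApoE4 2 and 3 lay just above Control 2, and its log2 fold change was 0.09 ± 0.07 (limma adjusted p = 0.640).

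The assembly factors of complex I were expressed below its subunits. Per kilobase of transcript their median level was 969 normalised reads, from 424 for Ndufaf3 to 2253 for Ndufaf2, beside a median of 4698 for the subunits. Ndufaf7 had 1554, 1628 and 1628 normalised reads in controls and 1557, 1303 and 1369 with FL-ApoE4. FL-ApoE4 1 lay among the controls and the other treated libraries below them. The log2 fold change was -0.19 ± 0.08 (95% interval -0.37 to -0.007; limma adjusted p = 0.360), and -0.26 without FL-ApoE4 1 (adjusted p = 0.343). In the authors' deposited table its adjusted p, 0.397, was the smallest of the members given one. Cox7a1 had a smaller unadjusted p there (0.0146, against 0.0487 for Ndufaf7), but its adjusted p was listed as NA. Ndufaf5, another assembly factor, had a log2 fold change of -0.06 ± 0.07. Ndufaf8 had 772, 723 and 742 in controls and 902, 802 and 729 with FL-ApoE4, and these overlapped, with a log2 fold change of 0.12 ± 0.09 (adjusted p = 0.643).

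Complex II, the enzyme shared with the citric acid cycle, showed the same near-even levels in its 4 subunits. Sdha, the flavoprotein that oxidises succinate, had 20022, 20078 and 21010 normalised reads in controls and 20428, 20144 and 20055 with FL-ApoE4. The treated libraries lay inside the control range, and the log2 fold change was -0.01 ± 0.04 (limma adjusted p = 0.950). Sdhb, the iron-sulphur subunit, had a log2 fold change of 0.03 ± 0.06, and the membrane anchors Sdhc and Sdhd 0.02 ± 0.06 and 0.03 ± 0.06. Sdhd had 11105, 10990.1 and 11424 in controls and 12147, 10754 and 11286 with FL-ApoE4, overlapping. Per kilobase of transcript the levels ran from 4138 for Sdhc to 9167 for Sdhd. The order depends on the transcript taken as the model: per kilobase of coding sequence Sdhc was at 25881 and Sdhd at 23657 normalised reads.

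In complex III all 8 genes were tested, with log2 fold changes from -0.05 to 0.05. Uqcrc1, a core subunit, had 13910, 13634 and 13733 normalised reads in controls and 14304, 13401 and 13187 with FL-ApoE4, the controls lying inside the treated range. Its log2 fold change was -0.01 ± 0.05 (limma adjusted p = 0.938). Uqcrfs1, the Rieske iron-sulphur protein, had 9089, 7797 and 7909 in controls and 8772, 7480.3 and 7735 with FL-ApoE4. Replicate 1 was high in both groups, which overlapped, and the log2 fold change was -0.05 ± 0.08 (adjusted p = 0.874). Uqcr11 and Uqcrb, small subunits, had the lowest p among positive values, with log2 fold changes of 0.05 ± 0.06 and 0.04 ± 0.06. Uqcrq, a small subunit, had the highest level, 24108 normalised reads per kilobase of transcript, and Uqcrfs1 the lowest, 5965. Per kilobase of coding sequence Uqcrc1 was lowest at 9510, with Uqcrfs1 at 9891.

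Complex IV, which holds most of the tissue isoforms, had the widest range of levels. Cox4i1, the broadly expressed form of the largest nuclear subunit, had 39719, 37252 and 36468 normalised reads in controls and 42758, 37182 and 37038 with FL-ApoE4. FL-ApoE4 1 was highest and the other treated libraries lay inside the control range, at a log2 fold change of 0.04 ± 0.07 by limma (adjusted p = 0.863). At 51547 normalised reads per kilobase it had the highest level of all tested members. Cox4i2, its lung isoform, had 3 reads in Control 1 and was listed at 0 in the other 5 libraries. Cox5a, a subunit on the matrix side, had 8883, 8293 and 8354 in controls and 9522, 8474 and 8685 with FL-ApoE4, overlapping, with a log2 fold change of 0.06 ± 0.06 (adjusted p = 0.725).

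For the other paired subunits the broadly expressed form was present at over 1000 reads and the muscle or testis form at or near 0. Cox6a1 had 7809 to 9163 normalised reads over the 6 libraries, while its muscle form Cox6a2 was listed at 0 in all. Cox6b1 had 8363 to 9366, while Cox6b2, the testis form, had 1 read in FL-ApoE4 1 and 3 and none elsewhere. Cox7b had 7237 to 8150 and Cox7b2 at most 2 reads. Cox8a had 9407 to 10775, Cox8c was listed at 0 in all libraries, and Cox8b, a muscle form, had 1, 2 and 1 reads in controls and none with FL-ApoE4. A count of 0 allows up to 3 reads per library, so no fold is given for these genes. Ndufa4 had 6410.5 to 7205 normalised reads and its paralogue Ndufa4l2, a known hypoxia-induced gene, 11.9, 6.64 and 2.83 in controls and 6.69, 7.42 and 5.87 with FL-ApoE4, overlapping. Ndufb4b, Ndufb4c and Ndufs6b, further copies of complex I subunits, were listed at 0 throughout.

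Cox7a1 was the one tested member at a low level. It passed the filter through its control values alone, the treated mean being under 10, and with controls at that level it would not have been tested, so its lower value is given as a description. It had 18.5, 21.8 and 14.1 normalised reads in Control 1 to 3 and 5.58, 7.42 and 7.83 in FL-ApoE4 1 to 3, which is 17, 23 and 15 reads against 5, 8 and 8. All treated libraries lay below all controls. The mean was 18.1 ± 3.85 in controls and 6.94 ± 1.20 with FL-ApoE4 (SD, n = 3). The log2 fold change was -1.26 ± 0.29 (95% interval -1.95 to -0.57; limma adjusted p = 0.174). By edgeR the adjusted p was 0.167, and without Control 1 or FL-ApoE4 1 the log2 fold change was -1.24 (limma adjusted p = 0.122) or -1.13 (0.369). In none of the alternatives run did it pass the threshold, DESeq2 giving no adjusted p (NA). It came under the filter when a mean of at least 50 was required.

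The other members of the Cox7a1 family lay close to even between groups. Cox7a2, the broadly expressed isoform, had 5871, 5441 and 5336 normalised reads in controls and 6225, 5612 and 5604 with FL-ApoE4, overlapping, at a log2 fold change of 0.07 ± 0.06 by limma (adjusted p = 0.725). Per kilobase of transcript, Cox7a2 exceeded Cox7a1 by 234, 184 and 278 times in Control 1 to 3 and by 821, 557 and 527 times in FL-ApoE4 1 to 3. These ratios restate the few Cox7a1 reads given above, with the same limit from the filter, and are no separate difference between groups. Cox7a2l, which links complex III and IV in supercomplexes, had 3445, 3271 and 3042 in controls and 3545, 3198 and 3081 with FL-ApoE4, with a log2 fold change of 0.009 ± 0.07. The ratio of Cox7a2 to Cox7a2l per kilobase was 2.85 to 3.12 in all 6 libraries.

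**Figure D4:**
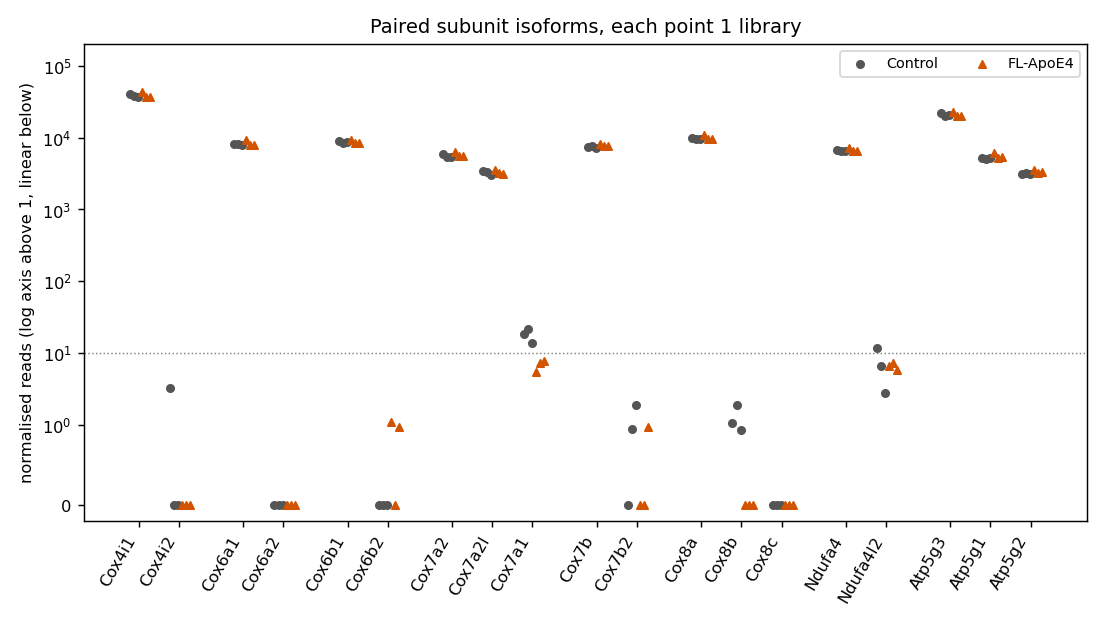
Normalised reads of paired subunit isoforms in each library (circles Control, triangles FL-ApoE4), on a log axis above 1 and a linear one below. The dotted line marks the filter at 10; the broadly expressed forms lie above 1000, the other forms at or below the line except the controls of Cox7a1 and Control 1 of Ndufa4l2.

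In complex V the catalytic head was even between groups. Atp5a1, the alpha subunit, had 60730.4, 59455 and 59574 normalised reads in controls and 61728, 58362 and 58652 with FL-ApoE4, the controls lying inside the treated range. The log2 fold change was -0.009 ± 0.05 (limma adjusted p = 0.964). Atp5b, the catalytic beta subunit, had 76847, 71789 and 71975 in controls and 75499, 71345 and 71121 with FL-ApoE4, with a log2 fold change of -0.02 ± 0.05 (adjusted p = 0.932). These overlapped as well. At 38150 normalised reads per kilobase of transcript Atp5b had the highest level of the complex. Atp5l, the g subunit of the membrane part, had the lowest at 3392. The top rank depends on the transcript model: per kilobase of coding sequence Atp5g3 was at 49253 and Atp5b at 46059. Atp5l and Atp5j, the coupling factor of the stalk, had the lowest p among negative values, with log2 fold changes of -0.08 ± 0.09 and -0.02 ± 0.05.

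Atp5g1, Atp5g2 and Atp5g3 encode the same mature c subunit, which forms the rotating membrane ring, and differ in their import sequences. Atp5g1 had 5166, 5033 and 5118 normalised reads in controls and 6067, 5166 and 5345 with FL-ApoE4, with FL-ApoE4 2 level with Control 1. Its log2 fold change was 0.11 ± 0.07 (limma adjusted p = 0.539). Atp5g2 had 3071, 3193 and 3119 in controls and 3527, 3255 and 3358 with FL-ApoE4, with a log2 fold change of 0.11 ± 0.05 (adjusted p = 0.432). In both genes all treated libraries lay above all controls. Atp5g3 had 21644, 20202 and 20838 in controls and 22594, 19910.2 and 19817 with FL-ApoE4, and these overlapped, with a log2 fold change of -0.01 ± 0.06 (adjusted p = 0.969).

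The 3 genes made up slightly different shares of the c subunit transcripts in the 2 groups. Computed per kilobase, Atp5g3 gave 65.1% ± 0.821 of the sum in controls and 63.2% ± 0.516 with FL-ApoE4 (SD, n = 3). Atp5g1 gave 19.1% ± 0.181 and 20.1% ± 0.361, and Atp5g2 15.8% ± 0.653 and 16.7% ± 0.571. By library, the share of Atp5g3 was 66.0%, 64.3% and 65.1% in controls and 63.5%, 63.5% and 62.6% with FL-ApoE4, so the groups did not overlap, and those of Atp5g1 did not either. The shares of Atp5g2 overlapped, at 15.2%, 16.5% and 15.8% in controls and 16.1%, 16.8% and 17.2% with FL-ApoE4. The size of each share depends on the transcript taken as the model. For Atp5g2 438 of its 441 bases were coding, against 408 of 596 for Atp5g1 and 423 of 714 for Atp5g3. These shares were looked at after the values were seen and were not tested.

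**Figure D5:**
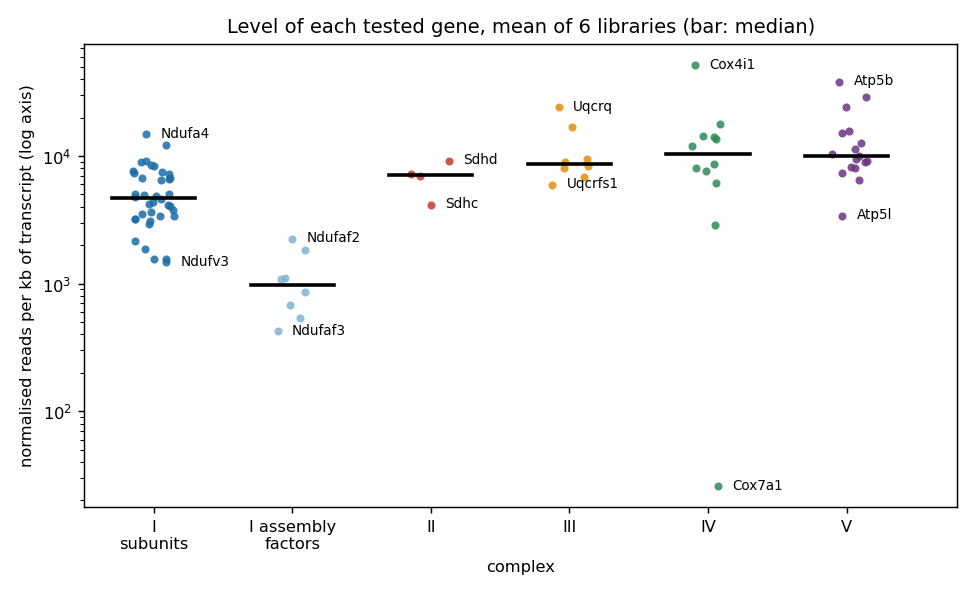
Mean level over the 6 libraries of each tested gene, in normalised reads per kilobase of transcript (log axis), by complex, with the median as a bar and the highest and lowest gene of each group labelled. Complex I assembly factors lie lowest (median 969) and complexes IV and V highest (medians 10296 and 10029), with Cox7a1 at 25.9 apart from all others.

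Genes that serve the complexes without belonging to the pattern showed no call either. Of 40 tested assembly factors outside the pattern, limma called 0, and the median log2 fold change was 0.01. At an unadjusted p below 0.05, 3 were higher (7.5%) and 0 lower, a share near that of all tested genes for the higher values (6.81%). The 3 were Cox19, a copper-handling factor for complex IV (0.18 ± 0.06), Coa5, another complex IV factor (0.11 ± 0.04), and Tmem126b, of the complex I intermediate assembly complex (0.19 ± 0.08). Of 22 tested electron carriers and coenzyme Q genes 0 were called, the median was -0.006, and the lowest p belonged to Coq10b, a coenzyme Q binding protein (-0.30 ± 0.12, and -0.18 without Control 1). Cyc1 had a log2 fold change of -0.007 ± 0.05. Of 11 tested genes for carriers, membrane channels, inner membrane proteins and the ATP synthase inhibitor 0 were called, with a median of -0.02.

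Regulators of mitochondrial gene expression had a median log2 fold change of -0.06 over 28 tested genes, with 0 called. Values were positive for 7 and negative for 21, against 50.3% positive of all tested genes. All treated libraries lay below all controls in 7 of the 28, against 10.9% of all tested genes, and above them in 1, against 11.1%. At an unadjusted p of 0.05, 1 was higher (3.57%, against 6.81% of all tested genes) and 3 were lower (10.7%, against 6.33%). The higher was Ppargc1b, a coactivator of mitochondrial biogenesis, with 1019, 1484 and 1630.1 normalised reads in controls and 1758, 2139 and 2069 with FL-ApoE4. All treated libraries lay above all controls, Control 1 being lowest, and the log2 fold change was 0.55 ± 0.17 (limma adjusted p = 0.246), or 0.35 without Control 1 (adjusted p = 0.0700). Tfam encodes a protein that packages mitochondrial DNA and helps start its transcription. It had 3572, 3489 and 3533 in controls and 3289, 3024 and 3299 with FL-ApoE4, without overlap, with a log2 fold change of -0.14 ± 0.05. The other 2 lower genes were Gabpb1, the partner of GABPA (-0.17 ± 0.07, and -0.11 without Control 1), and Yy1. Yy1 had 8227, 8260.4 and 8466 normalised reads in controls and 7801, 7601 and 7714 with FL-ApoE4, without overlap, at a log2 fold change of -0.11 ± 0.04 by limma (adjusted p = 0.338). Gabpa had -0.12 ± 0.06, without overlap, and -0.07 without Control 1. Nrf1 had -0.06 ± 0.05, with overlap. None of these 4 passed the threshold.

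Of the 13 subunits that the mitochondrial genome encodes, 0 were called by limma, with a median log2 fold change of 0.04. ATP6, a subunit of the membrane part of ATP synthase, had 266, 113 and 222 normalised reads in controls and 116, 72.3 and 74.4 with FL-ApoE4. Control 2 lay below FL-ApoE4 1, so the groups overlapped. The log2 fold change was -1.13 ± 0.33 (limma adjusted p = 0.230), and in the authors' deposited table it was -1.20 (adjusted p = 0.0130). COX1 stood near 240411 in controls while COX2 and COX3 stood at 108 and 97.7, so levels of these genes were not compared with those of the nuclear subunits. The authors' deposited table gave 0 of the 97 members an adjusted p under 0.05, against 367 genes in all, and listed it as NA for 11 members.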

How the data were processed

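RNA of 6 samples, 3 Control and 3 FL-ApoE4, was compared. The deposited values are a signal, reads per gene divided by one size factor per library. The submitters' processing notes name HISAT2 2.2.1, HTSeq, DESeq2 1.30.1, FastQC 0.11.8 and the build GRCm39, without roles or settings. Whether strand was used in counting is not stated. Every deposited value was a whole multiple of its column's smallest value (100% of values in each library, tolerance 0.01), so whole reads were recovered. The authors' deposited statistics table gives each gene a log2 fold change and a p-value, raw and adjusted.

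The test was limma 3.58.1 (R 4.3.3, mean-variance trend, two-sided) on log2(value + 1) for the 14079 genes with a mean of at least 10, with Benjamini-Hochberg adjustment over all of them, a threshold of 0.05 and group as the single term. This scale understates changes of low genes. The edgeR quasi-likelihood test (4.0.16, TMM) on the recovered reads, run as an alternative, called 0 genes, and DESeq2 (1.42.0) called 370. The limma test was tried on simulated data with known changes. No p-value was adjusted over the members alone.

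Levels per kilobase use GENCODE M21 transcripts (GRCm38), the shortest of those with the longest coding sequence, known for 93.3% of tested genes and 96 of 97 members. Ranks by level depend on this choice, and some differ per kilobase of coding sequence. Promoters come from RefSeq (GRCm38.p6). Members, lists and tests were chosen with earlier results of these data known. Named genes are, per complex, the 2 of lowest p in each direction, the highest and lowest level per kilobase, the paired isoforms, 9 catalytic or defining subunits, and members under the filter, plus up to 3 genes of lowest p per other list. Cyc1, Nrf1, Gabpa, Yy1, COX1, COX2, COX3, Ndufc1, Ndufs3, Ndufs7, Ndufv2, Atp5h and Atp5k were named outside that rule after their values were seen. Alternatives covered scaling, pseudocount, filter, test, trend removal for length and GC content, each library left out in turn, and a replicate block. The edgeR test and the trend removal without replicate 1 of either group were added after the data were seen. For 1 tested member no values are reported here, though counts and medians include it.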

Additional observations from a re-analysis of the deposited data

How the results depend on the processing

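In all 23 alternatives run, 0 of the 87 members were called in either direction. The smallest adjusted p of any member was 0.0525 (Ndufaf7, limma with the length and GC trend removed and without Control replicate 1, an alternative chosen after seeing the data, in which 1151 of 13134 genes were called), and by edgeR without Control replicate 1 it was 0.0928 (Cox7a1). Leaving out each library in turn, the members' median log2 fold change ranged from -0.04 (without FL-ApoE4 1) to 0.05 (without FL-ApoE4 3). Without FL-ApoE4 1, 44 of 87 fold changes took the other sign, and with the length and GC trend removed 32 did, while 0 to 15 did in the others that change 1 choice. With the replicate block the count stayed at 0, the median at 0.02 and the smallest adjusted p was 0.221. The block was not used further, since same-numbered libraries did not deviate together (r = 0.13, 0.07 and -0.03 for numbers 1 to 3). With the length and GC trend removed and without FL-ApoE4 1, the median of complex IV was -0.036.

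Among the other lists, DESeq2 called 1 of 13 mitochondrially encoded genes lower, ATP6 (-1.20), where 2.63% of all tested genes were called. With the length and GC trend removed and without Control replicate 1, 1151 of 13134 genes were called. In that setting 1 of 40 assembly factors outside the pattern was called higher (Coa5, 0.15). So were 1 of 22 genes of the electron carriers and coenzyme Q list and 1 of 28 regulators (Ppargc1b, 0.35). Each of these shares lay below that over all genes. Depth limits Cox7a1, with 5 to 23 reads per library, and the 10 members under the filter. Counts of 0 allow up to 3 reads and cover counting error only. Whether reads of related gene copies were split between them by the counting is not given in the sources used here.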
